A study of Mus musculus with 12 samples.

Results

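Guanylate-binding proteins (GBPs) and immunity-related GTPases (IRGs) are families of GTP-hydrolysing proteins best known as effectors of interferon. The genes described here are Gbp2, Gbp3, Gbp5, Gbp7, Iigp1, Igtp, Irgm1 and Irgm2. They were taken by name from the deposited table of counts, where all 8 had a row among 21232 genes, and all 8 passed the filter on low counts that left 12736 genes for testing. RNA sequencing had been done on C2C12 cells, an established mouse myoblast line labelled as strain C57BL/6 and used at passages 5 to 10. These cells divide in growth medium with 10% fetal bovine serum and differentiate in medium with 2% horse serum.

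There were 4 groups of 3 libraries, lettered A, B and C. The TNF group was differentiated for 48 h with tumor necrosis factor alpha at 10 ng/ml. The Fbxl2 siRNA group was differentiated for 48 h after silencing of Fbxl2, which encodes an F-box subunit of SCF ubiquitin ligases. The control group was differentiated for 48 h without TNF, and the proliferation group was collected at 0 h as dividing myoblasts. All groups came from the same cell line. The labels do not say whether the TNF, control or proliferation cells received a non-targeting siRNA. They also do not say that the letters are separate cultures. The p-values set differences between groups only against the spread of these libraries within a group, and that spread may be technical. Each library held 26416978 to 32917763 counts over 14303 to 14796 genes with a count, and RNA integrity numbers ran from 9.7 to 10.0. Fbxl2 itself averaged 28.9 ± 1.0 counts per 1000000 (CPM) in TNF, 22.2 ± 1.5 CPM in Fbxl2 siRNA, 32.9 ± 1.3 CPM in control and 26 ± 1.7 CPM in proliferation libraries (SD, n = 3 each), so the siRNA libraries kept 67.5% of the control level.

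GBPs are large GTPases of the dynamin superfamily that assemble on the vacuoles of intracellular pathogens. Some GBPs are anchored in membranes by a prenyl lipid. IRGs are smaller. In mouse cells the effector IRGs, such as Iigp1, load onto pathogen vacuoles, while the regulatory IRGs, Irgm1, Irgm2 and Igtp (also called Irgm3), sit on the cell's own membranes and hold the effectors inactive there. Interferon gamma raises both families through JAK kinases and transcription factors that bind gamma-activated sequences (GAS). Interferon-stimulated response elements (ISREs) are read by factors of the IRF family such as IRF1, and kB sites are bound by NF-kB, the main transcription factor downstream of TNF.

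In the GENCODE M21 annotation of GRCm38 the 4 GBP genes lay in 1 cluster on the plus strand of chromosome 3, with Gbp5 at chr3:142493978-142522344, Gbp7 at chr3:142530342-142550149, Gbp3 at chr3:142560026-142573209 and Gbp2 at chr3:142620602-142638008. Irgm1 lay on the minus strand of chromosome 11 at chr11:48861968-48871683. Igtp at chr11:58199556-58207591 and Irgm2 at chr11:58199618-58222782 overlapped on the plus strand of the same chromosome. All 8 members are annotated as protein coding.

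The stretches below surround the ISRE matches upstream of the RefSeq start in 7 of the members, and they are shown because these genes moved together in the libraries. They are read 5′ to 3′ on each gene's own strand from the RefSeq promoter windows of GRCm38.p6, and the capitals mark the letters that match GAAANNGAAA on either strand. In Gbp3 and in Irgm1, 2 overlapping matches form 1 run of capitals. RefSeq starts can lie inside the GENCODE spans given above. The stretches of Gbp5, Irgm1 and Irgm2 fall within those spans, as does the match of Gbp2. For Gbp7, Irgm2 and 1 of the 2 Gbp3 windows, the last 50 bases were not found whole in a GENCODE transcript of the gene.
Gbp2, chr3:142620579-142620638, plus strand: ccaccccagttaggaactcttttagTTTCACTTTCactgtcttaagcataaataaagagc
Gbp3, chr3:142559974-142560033, plus strand: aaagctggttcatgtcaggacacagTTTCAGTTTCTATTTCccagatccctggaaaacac
Gbp5, chr3:142496744-142496803, plus strand: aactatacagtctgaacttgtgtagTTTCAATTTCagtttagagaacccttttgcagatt
Gbp7, chr3:142530258-142530317, plus strand: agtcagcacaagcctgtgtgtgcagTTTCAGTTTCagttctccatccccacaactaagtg
Igtp, chr11:58199497-58199555, plus strand: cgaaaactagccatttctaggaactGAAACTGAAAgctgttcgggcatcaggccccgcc
Irgm1, chr11:48871421-48871475, minus strand: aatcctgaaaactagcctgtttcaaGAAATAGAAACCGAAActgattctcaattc
Irgm2, chr11:58214888-58214947, plus strand: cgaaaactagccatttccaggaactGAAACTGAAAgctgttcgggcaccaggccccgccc

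All 7 members shown held the ISRE letters in at least 1 window, against 3.99% of the 27025 genes with RefSeq windows. These windows reach from 250 bases before to 50 after each start. No window of Iigp1 is reported here. The second window of Gbp3 held none. The match read on the gene's minus strand in all 4 GBP genes and on its plus strand in Igtp, Irgm1 and Irgm2. Its first base was 59 bases before the RefSeq start in Gbp2, 45 in Gbp3, 53 in Gbp7, 34 in Igtp, 30 in Irgm1, 64 in Irgm2 and 165 in Gbp5, the farthest. The stretches of Igtp and Irgm2 were identical at 57 of 59 bases. The GAS letters TTCNNNGAA, also searched on both strands, were found in Gbp5, Gbp7, Igtp and Irgm2, against 9.55% of those genes. The kB letters GGGANNTTCC were found in Gbp2, just after the start, and in Gbp5, against 1.63% of those genes. Of the 7, only Gbp5 held all 3 kinds of match in this window. Whether any of these matches bears on the levels of these genes was not tested. The kB match of Gbp5, unlike that of Gbp2, lay before the start. It is in the next stretch, where the capitals mark the kB letters.
Gbp5, chr3:142496832-142496891, plus strand: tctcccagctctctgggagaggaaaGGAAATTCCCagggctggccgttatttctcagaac

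**Figure D1:**
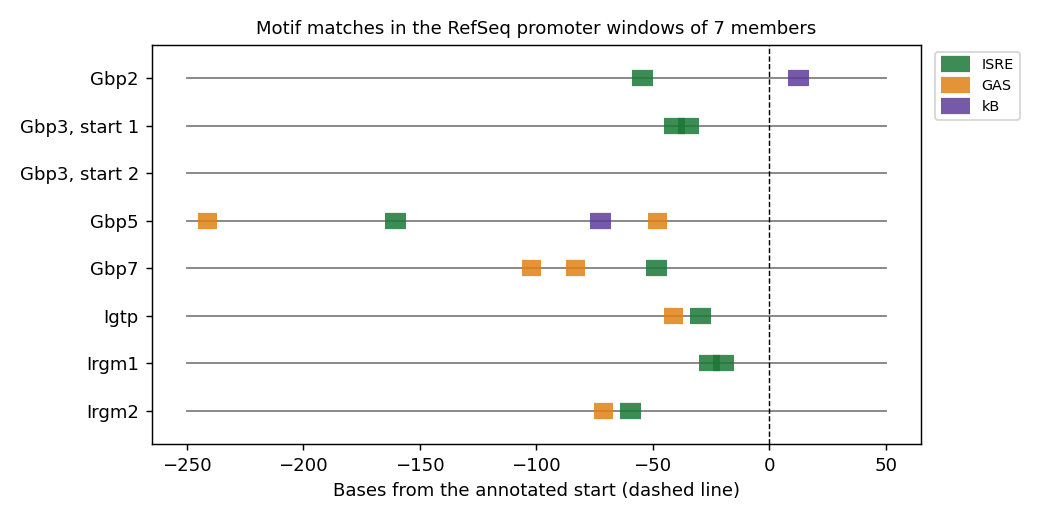
Position of each motif match, in bases from the annotated RefSeq start (dashed line), in the promoter windows of the 7 members; grey lines are the windows, and Gbp3 has a window for each of its starts. ISRE matches lie within 64 bases before the start in every member shown but Gbp5, and the second Gbp3 window has no match.

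All 8 members were highest in the TNF libraries, next in the Fbxl2 siRNA libraries, lower in control libraries and lowest in proliferating myoblasts, by group mean. The levels that follow are CPM, computed on library sizes corrected for composition, in libraries A, B and C. Levels are compared between genes only further on, after scaling by length. In bulk RNA a change in the number of expressing cells and a change in RNA per cell cannot be told apart.

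Gbp2, a prenylated GBP that coats pathogen vacuoles, had 223, 237 and 236 CPM in TNF libraries, 61.5, 53.9 and 53.6 CPM in Fbxl2 siRNA libraries, 43.5, 45.4 and 46.2 CPM in control libraries, and 4.41, 3.87 and 4.83 CPM in proliferation libraries. The 4 groups did not overlap, and the siRNA libraries lay far closer to control than to TNF. Gbp3, another GBP of the same cluster, had 145, 170 and 171 CPM in TNF libraries, 44.3, 37.8 and 41.2 CPM in Fbxl2 siRNA libraries, 13.4, 15.7 and 18.5 CPM in control libraries, and 1.28, 1.23 and 1.32 CPM in proliferation libraries. Here the siRNA libraries stood well above control, and again no groups overlapped.

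Gbp5, known in macrophages for promoting inflammasome assembly, had 23.9, 26.4 and 26.2 CPM in TNF libraries, 1.74, 1.84 and 1.66 CPM in Fbxl2 siRNA libraries, 0.989, 0.801 and 1.19 CPM in control libraries, and 0.0987, 0.112 and 0.0658 CPM in proliferation libraries. In counts, proliferation libraries held 3, 3 and 2 reads of Gbp5, so its level there rests on 8 reads in all. TNF libraries stood apart from every other library for this gene. Gbp7, which in mouse macrophages takes part in assembling the NADPH oxidase, had 95.1, 108 and 110 CPM in TNF libraries, 31.7, 24.8 and 23.9 CPM in Fbxl2 siRNA libraries, 21, 22.1 and 26.4 CPM in control libraries, and 1.61, 1.12 and 1.18 CPM in proliferation libraries. Its siRNA and control libraries overlapped: control C lay above siRNA B and C. The share of all genes tested whose groups do not overlap was not counted.

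Iigp1, the effector IRG of the set, lies on chromosome 18 and had 98.8, 111 and 106 CPM in TNF libraries, 29.0, 22.2 and 26.3 CPM in Fbxl2 siRNA libraries, 13.2, 17 and 20.6 CPM in control libraries, and 0.0987, 0.149 and 0.0658 CPM in proliferation libraries. The groups did not overlap, and the proliferation values come from 3, 4 and 2 reads. Irgm1, a regulatory IRG linked to autophagy and lysosomes, had 291, 301 and 304 CPM in TNF libraries, 140, 122 and 130 CPM in Fbxl2 siRNA libraries, 111, 118 and 119 CPM in control libraries, and 36.0, 35.2 and 33.1 CPM in proliferation libraries. It was the member with the most reads in dividing myoblasts, and its siRNA libraries lay just above control, with siRNA B close to control C.

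Igtp, the regulatory IRG of the endoplasmic reticulum, had 60.7, 71.8 and 72.1 CPM in TNF libraries, 46.5, 40.0 and 44.0 CPM in Fbxl2 siRNA libraries, 18.5, 19.4 and 22.4 CPM in control libraries, and 1.84, 1.68 and 1.25 CPM in proliferation libraries. Irgm2, the regulatory IRG of the Golgi, had 117, 135 and 136 CPM in TNF libraries, 85.5, 73.7 and 81.2 CPM in Fbxl2 siRNA libraries, 35.8, 42.5 and 46.3 CPM in control libraries, and 2.27, 2.12 and 2.47 CPM in proliferation libraries. For both genes the siRNA libraries lay between control and TNF without overlap, and nearer to TNF than for any other member. The 2 genes share 162 exon bases, and 12.3% of the 50-base words of Igtp also occur in Irgm2 transcripts, so reads could have been split between them. Gbp7 shares 10.6% of its words with the overlapping gene Gm43802 and 2.26% with Gbp3, and in the 5 other members at most 4.79% of words are shared with other genes.

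**Figure D2:**
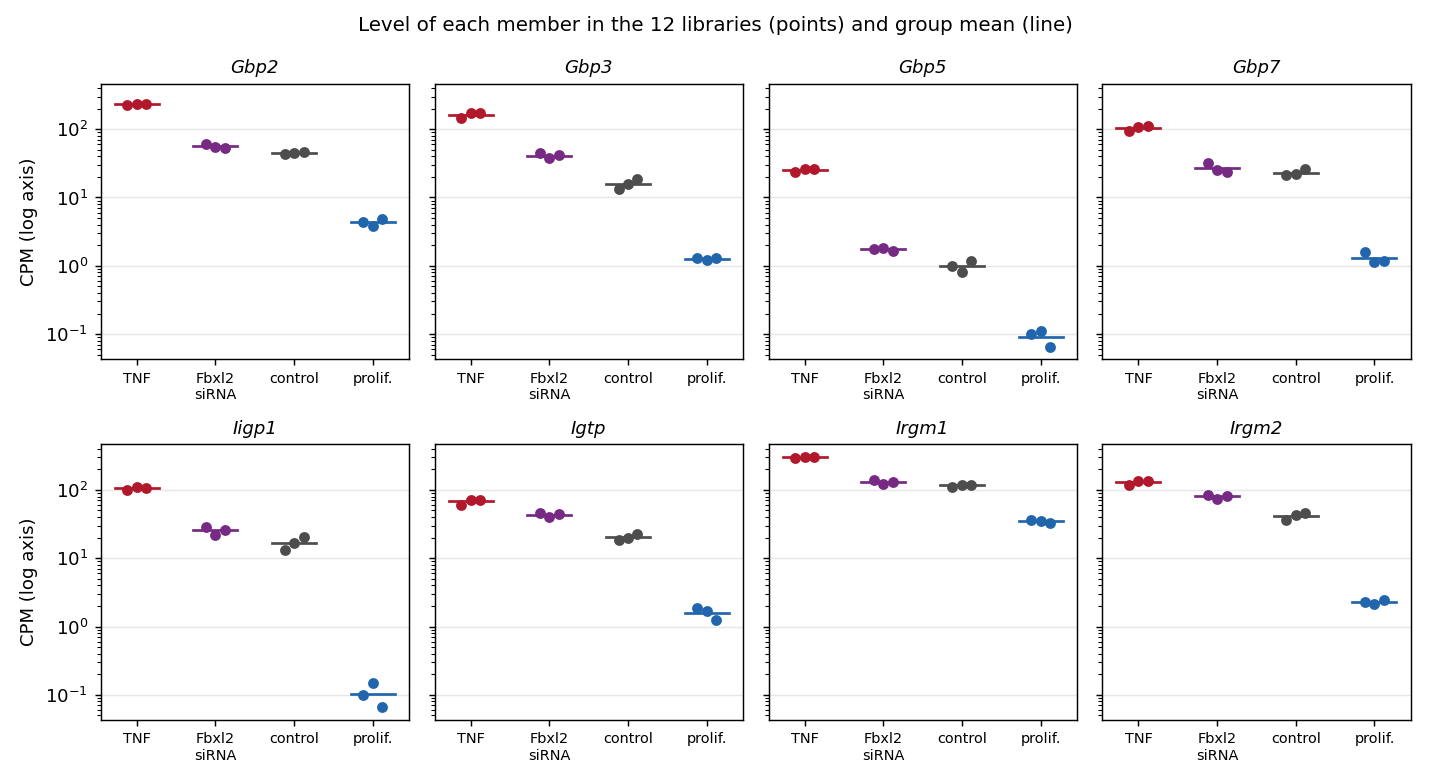
Level of each member in CPM (log axis) in the 12 libraries, 3 points a group for A, B and C from left to right, with a line at the group mean. TNF libraries lie highest and proliferation libraries lowest in all 8 panels, and Fbxl2 siRNA and control libraries overlap in the Gbp7 panel.

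TNF-treated cells had more RNA of every member than control cells. In TNF over control, all 8 were called higher by edgeR's quasi-likelihood test with Benjamini-Hochberg adjustment at an adjusted p under 0.05, in a comparison where 31.0% of all genes tested were called higher and 23.6% lower. Gbp5 had the largest change, at 25.6-fold higher (4.68 as a log2 fold change, SE 0.11, adjusted p = 2.67e-18). Gbp3 was 10.2-fold higher (3.36, SE 0.10, adjusted p = 7.36e-14) and Iigp1 6.27-fold higher (2.65, SE 0.13, adjusted p = 5.72e-09). Gbp2 was 5.15-fold and Gbp7 4.52-fold higher. The 3 regulatory IRGs had the smallest folds, with 3.40-fold for Igtp, 3.12-fold for Irgm2 and 2.57-fold for Irgm1 (log2 fold change 1.36, SE 0.05, adjusted p = 5.76e-15). The 4 GBPs and the effector Iigp1 thus all lay above the regulatory IRGs, a description of 8 genes with no test. The members' median log2 fold change was 2.27, against 0.03 over all genes tested.

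Within each letter the TNF library exceeded its control library for all 8 members, with log2 ratios of 1.35 to 1.39 for Irgm1 and 4.46 to 5.04 for Gbp5 at the ends of the range. In the TNF group library A was the lowest for 8 of 8 members, and in the control group for 7 of 8. In the Fbxl2 siRNA group library A was the highest for 7 of 8. The members therefore shifted together between libraries in these groups, so the siRNA values are also given within letters and without single libraries. In the proliferation group libraries B and C were each the lowest for 4 of 8 members. The same was not counted over all genes tested.

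Fbxl2 siRNA libraries differed less from control than TNF libraries did, in each of the 8 members. In Fbxl2 siRNA over control, 7 of the 8 members were called higher and none lower by edgeR's quasi-likelihood test, where 34.1% of all genes tested were called higher and 29.8% lower. Both comparisons use the same control libraries, and the loss of Fbxl2 and the siRNA transfection itself cannot be told apart. Gbp3 was 2.60-fold higher (log2 fold change 1.38, SE 0.10, adjusted p = 6.71e-09), Igtp 2.17-fold (1.12, SE 0.09, adjusted p = 1.82e-09) and Irgm2 1.93-fold (0.95, SE 0.08, adjusted p = 5.87e-08). Gbp5 was 1.76-fold higher, on 147 reads in siRNA and 89 in control libraries, and Iigp1 was 1.54-fold higher (adjusted p = 0.00216). Gbp2 was 1.25-fold higher (adjusted p = 6.09e-05). The members' median log2 fold change was 0.72, against 0.03 over all genes tested.

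The other 2 members lay near the threshold. Irgm1 was 1.12-fold higher (log2 fold change 0.17, SE 0.05, adjusted p = 0.00746). That call was lost by edgeR's test without the libraries of letter A (log2 fold change 0.08, adjusted p = 0.175), without those of letter C (0.18, adjusted p = 0.0616) and without siRNA library A alone (0.11, adjusted p = 0.0663). Gbp7 was not called (log2 fold change 0.22, 95% interval -0.03 to 0.46, adjusted p = 0.110). It was called by edgeR's test once all letter C libraries were left out (0.38, adjusted p = 0.0129), without control C alone (0.31, adjusted p = 0.0215) and without siRNA C alone (0.29, adjusted p = 0.0431). Within letters, the log2 ratio of siRNA to control for Gbp7 was 0.59 in A, 0.17 in B and -0.14 in C. The ratio in letter A was the largest of the 3 for every member but Gbp5. For Iigp1 it was 1.14 in A, 0.39 in B and 0.35 in C, and its fitted log2 fold change without letter A was 0.37, still called by edgeR's test (adjusted p = 0.00278).

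**Figure D3:**
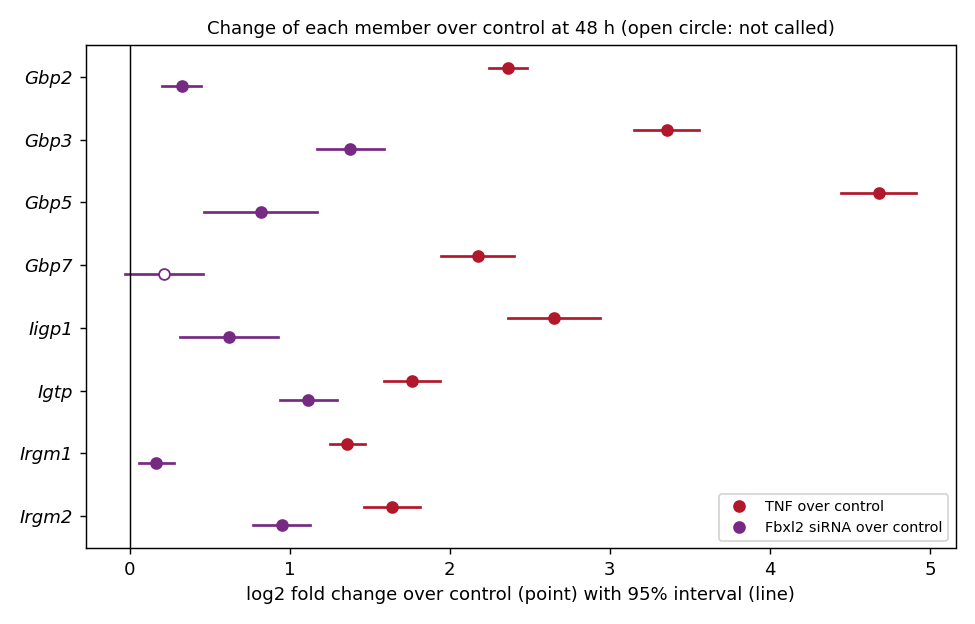
log2 fold change of each member (point) with its 95% interval (line) in TNF over control and in Fbxl2 siRNA over control, both set against the same 3 control libraries. All 8 members lie at 1.36 or more with TNF, whereas with Fbxl2 siRNA they lie between 0.17 and 1.38 and the interval of Gbp7 crosses 0.

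The direct comparison of TNF with Fbxl2 siRNA libraries separated the members. All 8 were called higher with TNF by edgeR's quasi-likelihood test, where 29.9% of all genes tested were called higher. Igtp and Irgm2 differed least, at 1.57-fold (log2 fold change 0.65, SE 0.08, adjusted p = 9.09e-07) and 1.61-fold (0.69, SE 0.08, adjusted p = 1.44e-06). Irgm1 was 2.29-fold higher. Gbp7, Gbp3, Iigp1 and Gbp2 lay close together at 3.89-fold, 3.93-fold, 4.08-fold and 4.11-fold. Gbp5 was 14.5-fold higher (log2 fold change 3.86, SE 0.10, adjusted p = 1.16e-17).

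Differentiation without TNF was accompanied by a rise of the same genes. In control over proliferation all 8 members were called higher by edgeR's quasi-likelihood test, where 38.4% of all genes tested were called higher and 38.9% lower. Irgm1 rose least, 3.34-fold (log2 fold change 1.74, SE 0.06, adjusted p = 1.75e-16). Gbp2 was 10.2-fold, Gbp3 12.3-fold, Igtp 12.6-fold, Gbp7 17.6-fold and Irgm2 18-fold higher. For Gbp5, with 89 reads in control and 8 in proliferation libraries, the ratio was 10.9 with a 95% counting interval of 5.28 to 25.9. For Iigp1, with 1498 reads in control and 9 in proliferation libraries, the ratio was 162 with a counting interval of 85.3 to 356. Such intervals cover counting error only. The members' median log2 fold change was 3.64, against 0.00 over all genes tested. Serum, confluence and 48 h in culture also separate these groups and cannot be told apart from differentiation.

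All 8 members were likewise called higher in TNF over proliferation, where 36.3% of genes tested were called higher, and in Fbxl2 siRNA over proliferation, where the share was 30.9%. Irgm1 again changed least by edgeR's fit, with log2 fold changes of 3.10 with TNF and 1.91 with siRNA. Iigp1 reached a ratio of 1024 with TNF (counting interval 539 to 2240) and of 251 with siRNA (counting interval 132 to 550), against the same 9 reads. For Gbp5 the ratio was 279 with TNF (counting interval 141 to 646) and 19.2 with siRNA (counting interval 9.49 to 45.3), against 8 reads.

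Scaled by length (CPM per kilobase of merged GENCODE exons, written RPKM), the summed level of the 8 members was 302 ± 17 RPKM in TNF, 110 ± 9 RPKM in Fbxl2 siRNA, 71.1 ± 5.5 RPKM in control and 9.78 ± 0.35 RPKM in proliferation libraries (SD, n = 3 each). Irgm1 made up 17 ± 0.6% of this sum in TNF libraries, 20.4 ± 0.1% in siRNA libraries, 28.2 ± 1.2% in control libraries and 61.2 ± 1.7% in proliferation libraries. Dividing myoblasts thus held mainly Irgm1 among these transcripts. Gbp2 made up 30.5 ± 0.7% in TNF libraries, 20.3 ± 0.7% in siRNA libraries, 25.2 ± 1.2% in control libraries and 17.8 ± 2.1% in proliferation libraries. Gbp3 had 16.4 ± 0.5% in TNF libraries, 11.4 ± 0.1% in siRNA libraries, 6.80 ± 0.57% in control libraries and 4.0 ± 0.20% in proliferation libraries. The shares of Igtp and Irgm2 were highest in siRNA libraries, at 19.5 ± 0.4% and 19.7 ± 0.4%, against 14.0 ± 0.5% and 15.8 ± 0.8% in control libraries.

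By this length-scaled level in TNF libraries, Gbp2 led with 92.1 ± 3.2 RPKM. Ranges of mean ± SD overlapped for Irgm1 with 51.4 ± 1.2 RPKM and Gbp3 with 49.5 ± 4.4 RPKM. They also overlapped for Irgm2 with 35.1 ± 2.9 RPKM and Igtp with 33.7 ± 3.2 RPKM, and for Gbp7 with 18.6 ± 1.4 RPKM and Iigp1 with 18.1 ± 1.1 RPKM. Members were measured in the same libraries and, in the 3 groups collected at 48 h, shifted together between them. An SD between libraries therefore does not judge a difference between 2 members, and no such difference was tested. Gbp5 came last with 3.84 ± 0.21 RPKM, even at its highest. In siRNA libraries the means of Irgm1, Gbp2, Irgm2 and Igtp lay close together at 22.5 ± 1.6, 22.4 ± 1.8, 21.7 ± 1.6 and 21.5 ± 1.6 RPKM. In control libraries Irgm1 led with 20.0 ± 0.7 RPKM, followed by Gbp2 with 17.9 ± 0.6 RPKM, Irgm2 with 11.3 ± 1.4 RPKM and Igtp with 9.94 ± 1.02 RPKM. In proliferation libraries Irgm1 had 5.99 ± 0.25 RPKM and Gbp2 1.74 ± 0.19 RPKM, and every other member was under 0.8 RPKM. These differences depend on the length used. With the longest transcript of each gene as the length, mean levels in TNF libraries were 77.9 RPKM for Irgm1 against 60.3 RPKM for Gbp3, and 33.8 RPKM for Iigp1 against 18.6 RPKM for Gbp7. In siRNA libraries Irgm1 then stood above the rest at 34.1 RPKM, against 22.7 for Irgm2, 22.4 for Gbp2 and 21.5 for Igtp. Gbp5 reached 6.79 RPKM in TNF libraries and was still last. Iigp1 moved past Gbp7 in the 3 groups collected at 48 h, past Igtp too in TNF libraries, and Irgm2 past Gbp2 in siRNA libraries.

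**Figure D4:**
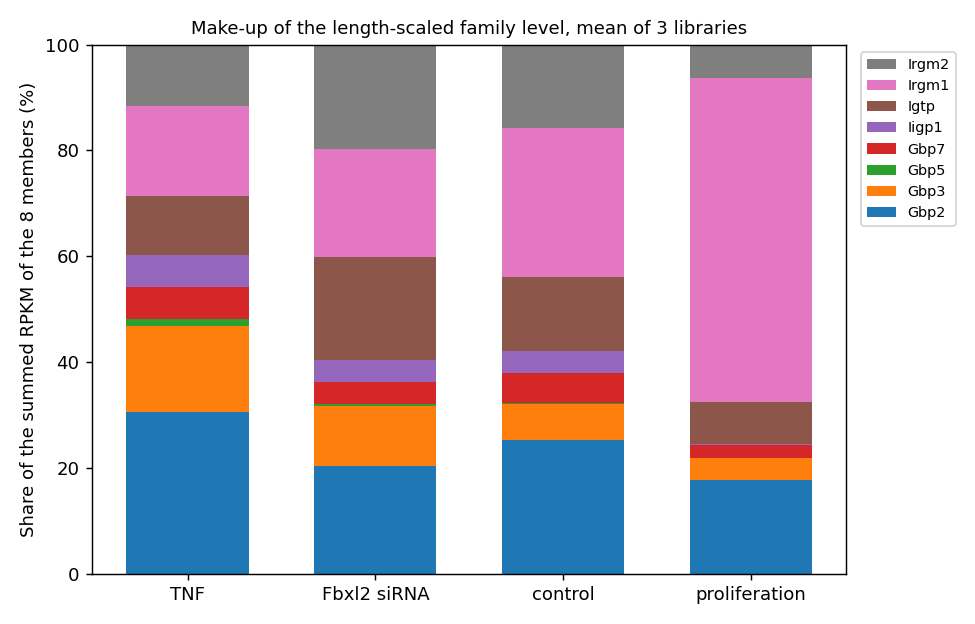
Share of the summed RPKM of the 8 members held by each member, as the mean of 3 libraries in each group; each bar adds up to 100%. Irgm1 fills 61.2% of the proliferation bar and 17% of the TNF bar, and Igtp and Irgm2 are widest in the Fbxl2 siRNA bar.

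Count ratios within a library need no scaling between libraries. Gbp3 had 1.52 to 1.57 reads for each Gbp7 read in TNF libraries and 1.40 to 1.72 in siRNA libraries, against 0.637 to 0.713 in control and 0.796 to 1.11 in proliferation libraries. Gbp3 to Gbp2 ran from 0.651 to 0.724 in TNF libraries and 0.701 to 0.768 in siRNA libraries, against 0.307 to 0.400 in control and 0.272 to 0.317 in proliferation libraries. The Gbp3 ratios of TNF and siRNA libraries thus overlapped, and both lay above control. Gbp5 to Gbp2 ran from 0.107 to 0.111 in TNF libraries and 0.0283 to 0.0341 in siRNA libraries, against 0.0177 to 0.0257 in control libraries, so TNF libraries stood apart here. Irgm2 to Igtp stayed between 1.84 and 2.18 in all 9 libraries at 48 h, and was 1.23 to 1.97 in proliferation libraries on few reads.

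Of 34 other names of the GBP and IRG families searched, 18 were in the table, 17 had a count and 15 were tested. In TNF over control 13 of the 15 were called higher and 1 lower by edgeR's test, with a median log2 fold change of 2.78. The GBPs of this list were Gbp2b at 133 CPM in TNF, 36.7 in siRNA, 24.8 in control and 2.67 in proliferation libraries, Gbp9 at 22.3, 5.33, 3.13 and 0.156 CPM, Gbp10 at 13.7, 4.75, 1.79 and 0.0658 CPM, and Gbp4 at 6.93, 1.18, 0.466 and 0.0716 CPM in the same groups. All 4 were called higher in TNF over control and in Fbxl2 siRNA over control. Of the effector IRGs, Ifi47 averaged 98.6 CPM in TNF, 33 in siRNA, 18.3 in control and 3.57 in proliferation libraries, and Tgtp1 46.5, 8.30, 6.08 and 0.288 CPM in those groups. Several of these genes overlap a relative (Gbp4 with Gbp9, Tgtp1 and 9930111J21Rik1 with Gm12185), so their separate levels are uncertain. Counts called in this list and in those below stand beside the shares of all genes tested. In TNF over control 31.0% of all genes tested were called higher and 23.6% lower. The shares were 34.1% and 29.8% in siRNA over control, and 38.4% and 38.9% in control over proliferation.

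Other family genes behaved less alike in siRNA over control, where 10 of the 15 were called higher and 3 lower by edgeR's test (1 lower without the libraries of letter B), with a median of 0.77. The family genes 9930111J21Rik1 and 9930111J21Rik2 averaged 23.2 CPM in TNF, 24.6 in siRNA, 12.7 in control and 16 in proliferation libraries for the first of the pair and 48.1, 60.9, 29.8 and 38.4 CPM for the other. These 2 were also the only ones called lower in control over proliferation, where 11 of the 15 were called higher and the median was 2.70. Irgq, an IRG-related gene, averaged 47.7 CPM in TNF, 49.98 in siRNA, 58.4 in control and 38.8 in proliferation libraries and was called lower in both comparisons with control. F830016B08Rik averaged 5.01 CPM in TNF, 0.397 in siRNA and 0.85 in control libraries, and Gm4841 1.83, 0.0595 and 0.206 CPM. Both were called higher with TNF and lower with siRNA, the siRNA level resting on 33 reads of F830016B08Rik and on 5 of Gm4841, against 18 of Gm4841 in control libraries. Gm12185 with 20.9 CPM in TNF, 4.02 in siRNA and 2.18 in control libraries, and Gm4951 with 13.1, 2.64 and 1.92 CPM, were called higher in both. Gm5431 averaged 0.682 CPM in TNF, 0.293 in siRNA and 0.180 in control libraries and was called higher with TNF only. Gvin1 had no read in control and proliferation libraries, 38 and 41 reads in TNF libraries B and C, 33 and 42 in siRNA libraries A and C, and none in TNF A or siRNA B, and it was not called. The 3 atlastins, dynamin-like GTPases that shape the endoplasmic reticulum, had 1 called higher and 1 lower in TNF over control, with a median log2 fold change of -0.11, and 1 higher and 1 lower in siRNA over control, with a median of 0.02.

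The ligands upstream were close to undetected. Of 20 interferon genes in the table, 4 had any count and none could be tested. Ifnb1, interferon beta, had 0 reads in TNF libraries, 1 in siRNA, 1 in control and 0 in proliferation libraries, summed over 3 libraries each. Ifng, interferon gamma, had 7, 5, 5 and 2 reads in those groups. Ifnz had the most reads of the list, at 13, 16, 14 and 6, with 0.170 to 0.213 CPM in siRNA libraries and 0 to 0.252 CPM in control libraries. A library with 0 reads of a gene still allows up to 3 at this depth.

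The receptors rose with TNF. All 5 tested receptor genes were called higher in TNF over control, with a median log2 fold change of 0.70, while 2 were called higher and 1 lower in siRNA over control, with a median of 0.08. In control over proliferation 3 were called higher and 1 lower, with a median of 0.14. The siRNA counts lie near the shares over all genes tested, 34.1% higher and 29.8% lower. Ifngr1, a chain of the interferon gamma receptor, averaged 117 ± 6 CPM in TNF, 60.0 ± 1.7 CPM in siRNA, 51.9 ± 1.6 CPM in control and 48.5 ± 1.6 CPM in proliferation libraries. Its partner Ifngr2 averaged 132 ± 2 CPM in TNF, 54.5 ± 1.8 CPM in siRNA, 55.1 ± 1.0 CPM in control and 49.8 ± 0.3 CPM in proliferation libraries. Ifnar1, a chain of the type I receptor, averaged 125 CPM in TNF, 91.7 in siRNA, 108 in control and 92.8 in proliferation libraries, and so was called higher with TNF and lower with siRNA.

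Of 12 tested JAK, STAT and IRF genes, 10 were called higher and none lower in TNF over control, with a median log2 fold change of 1.09. Irf1 averaged 190 ± 9 CPM in TNF, 81.3 ± 0.6 CPM in siRNA, 69.9 ± 0.9 CPM in control and 45.0 ± 0.7 CPM in proliferation libraries. It followed the order of the members. Jak2, a kinase of the interferon gamma receptor, did not: it averaged 375 ± 13 CPM in TNF libraries but 52.6 ± 1.1 CPM in siRNA libraries, against 79.9 ± 2.0 CPM in control and 47.7 ± 1.4 CPM in proliferation libraries. It was 1 of 2 genes of this list called lower in siRNA over control, the other being Stat3, while 7 were called higher. The list median in siRNA over control was 0.23. The largest rise with siRNA was that of Irf7, at 64.5 CPM in siRNA and 25.3 CPM in control libraries. In control over proliferation 9 of the 12 were called higher and 2 lower, with a median of 0.69.

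Among 9 inhibitors of interferon signalling, 5 were called higher and 1 lower in TNF over control (median log2 fold change 0.64), and 3 higher and 3 lower in siRNA over control (median -0.12). In control over proliferation 4 were called higher and 4 lower (median 0.13). The inhibitor counts in siRNA over control and in control over proliferation lie near the shares over all genes tested. Usp18, which blocks the type I receptor, averaged 49.3 ± 7.8 CPM in TNF, 40.8 ± 2.7 CPM in siRNA, 16.5 ± 2.3 CPM in control and 0.156 ± 0.097 CPM in proliferation libraries. Socs1, which inhibits JAK kinases, averaged 4.37 ± 0.36 CPM in TNF, 5.02 ± 0.39 CPM in siRNA, 2.77 ± 0.64 CPM in control and 3.95 ± 0.40 CPM in proliferation libraries.

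**Figure D5:**
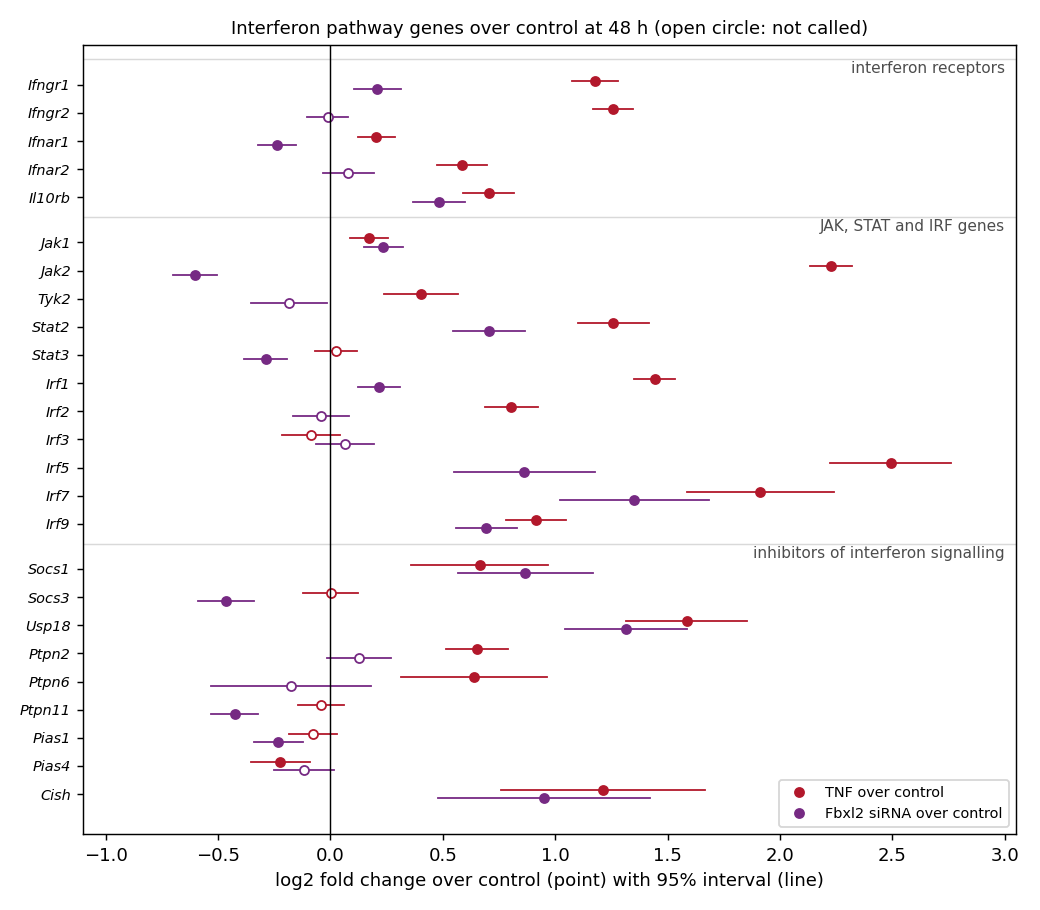
log2 fold change (point) with 95% interval (line) of tested receptor, JAK, STAT, IRF and inhibitor genes in TNF over control and in Fbxl2 siRNA over control, which share their control libraries; open circles were not called. Jak2 lies at 2.23 with TNF and at -0.60 with siRNA, while Irf1 lies above 0 in both.

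Genes for the machinery that acts on or with these proteins had medians near 0 in both comparisons with control. A list of 6 enzyme genes covered prenylation, which attaches the lipid anchor of some GBPs, and the protein processing that follows it. Of these 6, none was called higher and 1, Fnta, lower in TNF over control (median 0.05). In siRNA over control 2 were called lower, among them Pggt1b with a log2 fold change of -0.57, and none higher (median -0.03). ATG8 conjugation is needed in mouse cells to place IRGs and GBPs correctly on vacuoles. A list of 12 genes held conjugation genes, ATG8 protein genes and Sqstm1, which encodes a cargo receptor and is not a conjugation gene. Of these 12, 1 was called higher and 3 lower in TNF over control, and 1 higher and 5 lower in siRNA over control. The median was -0.06 in both. Sqstm1 had the largest rise of the list with TNF (log2 fold change 0.25), at 653 CPM in TNF and 551 CPM in control libraries. Map1lc3a, an ATG8 protein gene, had the largest of these changes with TNF, at 97.0 CPM in TNF, 142 in siRNA, 151 in control and 53.6 in proliferation libraries. In control over proliferation 9 of the 12 were called higher and 2 lower, with a median of 0.28, and Map1lc3a had the largest change, 2.81-fold higher (log2 fold change 1.49).

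Of 7 inflammasome genes in the table, 4 were tested, with a median log2 fold change of 1.25 in TNF over control and 1.05 in siRNA over control. Nlrp3, Pycard and Il1b had too few reads to be tested. Summed over 3 libraries, Nlrp3 had 2 reads in TNF, 2 in siRNA, 3 in control and 0 in proliferation libraries. Pycard had 1, 2, 2 and 1 reads in those groups, and Il1b 18, 17, 28 and 11. Casp4, which encodes the caspase-11 that senses lipopolysaccharide on bacteria opened with the help of GBPs, averaged 70.8 ± 4.2 CPM in TNF, 36.7 ± 2.0 CPM in siRNA, 15.6 ± 0.8 CPM in control and 7.65 ± 0.57 CPM in proliferation libraries. Casp1 averaged 10.0 CPM in TNF, 4.93 in siRNA, 2.70 in control and 0.955 in proliferation libraries. Both were called higher in TNF over control and in siRNA over control, as was the DNA sensor Aim2, while the cytokine gene Il18 was called lower with TNF and had a log2 fold change of 0.13 with siRNA that did not pass the test.

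Across the 12 libraries the 8 members followed one another closely. Pearson's r between pairs of members, on log2 CPM, ran from 0.874 for Irgm2 and Gbp5 to 0.998 for Irgm1 and Gbp2, a description in which all pairs share the 4 groups and the library scaling. The 5 other genes whose profile was most like the members' mean standardised profile over these 12 libraries were Ddx58, Parp14, Dtx3l, Gbp2b and Psmb8, with r from 0.997 to 0.999. Ddx58, which encodes the RNA sensor RIG-I, averaged 198 ± 9 CPM in TNF, 92.7 ± 5.6 CPM in siRNA, 72.5 ± 5.2 CPM in control and 16.6 ± 1.3 CPM in proliferation libraries. With Spearman's rho 2 of these 5 genes stayed in the list, and over the 9 libraries at 48 h 3 did.

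The label of muscle cells held against its markers: all 8 myoblast and muscle genes, Myod1, Myf5, Myog, Des, Cdh15, Chrna1, Ckm and Myh3, had counts in every group. Their summed level was 1679 to 1714 CPM in TNF, 2569 to 2869 CPM in siRNA, 3590 to 3893 CPM in control and 2003 to 2160 CPM in proliferation libraries. With TNF and with siRNA this sum was thus below control, opposite to the members. From proliferation to control it rose, as the members did. All 8 muscle genes were called lower in TNF over control, 6 of 8 lower and 1 higher in siRNA over control, and their part in the members' values was not tested. The 8 myeloid markers, of which 6 had a count, summed to 12.2 to 13.4 CPM in TNF, 14.1 to 16.6 CPM in siRNA, 8.78 to 10.5 CPM in control and 14.4 to 15.4 CPM in proliferation libraries, most of it Cd14. The myeloid genes Adgre1 and Tyrobp had no read in any library. The 8 lymphocyte markers summed to at most 0.314 CPM and the 6 endothelial markers to at most 2.81 CPM in any library.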

How the data were processed

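Per the labels, total RNA was made into libraries with an Illumina mRNA kit. The submitters' processing notes name CASAVA, DESeq2 and the genome build mm10. Aligner, counter, strand setting and gene models were not given in the sources used here. The authors deposited whole-number counts per gene for 12 libraries, and tables of their own comparisons with log2 fold changes and p-values. No column was left without a sample (0 columns). The authors' deposited table for siRNA over control gave Gbp7 a log2 fold change of 0.19 with an adjusted p of 0.103; their tables were not used otherwise.

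Counts were fitted with edgeR 4.0.16 in R 4.3.3 (TMM scaling, filterByExpr, robust quasi-likelihood fit of 4 group means, 8 residual degrees of freedom), and p-values were adjusted over 12736 genes by Benjamini-Hochberg. Standard errors are approximate, from the log2 fold change and its F statistic. Replicates of a group correlated at r = 0.994 to 0.996, and no pair of libraries agreed within sampling noise. Lengths came from GENCODE M21 and promoter windows from RefSeq.

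The members and gene lists were chosen with earlier results of these data known. Named genes were the members, detected relatives, Fbxl2, Irf1, Socs1, Ifngr1, Ifnar1, Ifnb1, the 5 genes of most similar profile and up to 3 genes of each list with the smallest p in TNF over control; further genes were named after their values were seen, and 1 gene of the rule is not reported here. Alternatives were DESeq2 1.42.0, edgeR with RLE size factors, no filter, the replicate block, the compared libraries alone, and leaving out libraries or letters.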

Additional observations from a re-analysis of the deposited data

How the results depend on the processing

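In 14 alternatives for each of 6 comparisons, 666 of 672 log2 fold changes of single members kept their direction and side of the threshold; 3 lost and 3 gained a call, all for Irgm1 and Gbp7 in Fbxl2 siRNA over control, and 0 reversed. For TNF over control 8 of 8 members stayed called higher in every alternative, and for siRNA over control between 6 and 8. With library letter as a replicate block, 8 members were called higher in TNF over control and 7 in siRNA over control, and 7070 and 8239 genes in all, against 6960 and 8142 without it. The letters gave little sign of pairing, since 3 of 18 same-letter pairs had deviations correlated above 0.1 (range -0.10 to 0.18). Pairs of different letters ranged from -0.16 to 0.13. The highest value, 0.18, was that of control A with TNF A. Of the other family genes, 1 in place of 3 was called lower in siRNA over control without the libraries of letter B. The order of members by length-scaled level was the same in 1 of 4 groups with the longest transcript as length, a choice that moved the TNF level of Iigp1 to 33.8 RPKM, against 18.1 with merged exons, and that of Irgm1 to 77.9 RPKM, against 51.4. RLE size factors moved the median of all genes by at most 0.03 (log2). Depth limits the ratios against proliferation for Gbp5 and Iigp1, and the overlap of Igtp with Irgm2 limits their separate levels.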
